A study of Mus musculus with 47 samples.

Results

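The cholesterol and fatty acid synthesis genes described here are 31 genes of sterol synthesis, its control, and fatty acid synthesis and desaturation, chosen by name from the 48795 genes of the deposited tables, and all 31 were found. RNA of the cerebral cortex had been sequenced in 47 mice of the C57BL strain at 6 months of age, 23 female and 24 male. The genotypes were Q140 X Ccdc82-/- (7 mice), Ccdc82-/- (8), Q140 X Ccdc82+/- (8), Ccdc82+/- (8), Q140 (8) and WT, wild type (8), with 4 females and 4 males in each except for 3 females in Q140 X Ccdc82-/-. Q140 is a knock-in mouse model of Huntington's disease that carries a long CAG repeat in Htt, 1 copy of it according to the titles, in all cells that express Htt. Ccdc82 encodes a coiled-coil protein, and its +/- and -/- mice had lost 1 or both copies; the labels do not say which piece of the gene was removed. Each library was taken as 1 mouse, since the titles number the samples within genotype and sex.

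Cholesterol does not cross the blood-brain barrier in useful amounts, so the brain makes its own, mostly in glia, and neurons dispose of it by hydroxylation. Synthesis runs from acetyl-CoA through mevalonate and squalene to lanosterol and then cholesterol. The transcription factor SREBP2 (Srebf2) drives the genes of this route and SREBP1 (Srebf1) those of fatty acid synthesis. The carrier SCAP (Scap) takes both factors to the Golgi for activation when sterol is scarce, and INSIG1 (Insig1), itself an SREBP target, holds SCAP back when sterol is plentiful. Sterol synthesis and 24-hydroxylation have both been studied in Huntington's disease brain.

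Promoters of sterol genes typically combine a sterol regulatory element, bound by SREBP, with a CCAAT box, bound by the factor NF-Y. RefSeq windows (GRCm38.p6, 250 bases before to 50 after the gene start) were at hand for 24 of the 31 genes. The promoters of 4 genes are shown. Hmgcs1 held the single match to TCACNCCAC, a pattern of the sterol regulatory element. Lss, Insig1 and Idi1 had the largest differences between the sexes. Only the 250 bases before the start are printed, 5′ to 3′ on the strand of the gene, at chr13:119690101-119690350 (+) for Hmgcs1, chr10:76531355-76531604 (+) for Lss, chr5:28071162-28071411 (+) for Insig1 and chr13:8885356-8885605 (+) for Idi1. Capitals mark CCAAT on either strand (ATTGG where it lies on the other strand) and the match to TCACNCCAC.
Hmgcs1: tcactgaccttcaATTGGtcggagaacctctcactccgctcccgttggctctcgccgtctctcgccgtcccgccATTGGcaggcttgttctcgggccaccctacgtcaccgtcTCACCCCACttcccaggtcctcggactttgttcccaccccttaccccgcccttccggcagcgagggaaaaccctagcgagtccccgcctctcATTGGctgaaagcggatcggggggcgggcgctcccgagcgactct
Lss: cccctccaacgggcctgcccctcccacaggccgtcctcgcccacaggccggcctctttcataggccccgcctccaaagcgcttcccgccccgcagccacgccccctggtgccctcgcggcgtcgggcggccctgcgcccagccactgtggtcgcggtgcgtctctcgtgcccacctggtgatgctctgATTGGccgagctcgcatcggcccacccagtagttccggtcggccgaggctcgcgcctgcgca
Insig1: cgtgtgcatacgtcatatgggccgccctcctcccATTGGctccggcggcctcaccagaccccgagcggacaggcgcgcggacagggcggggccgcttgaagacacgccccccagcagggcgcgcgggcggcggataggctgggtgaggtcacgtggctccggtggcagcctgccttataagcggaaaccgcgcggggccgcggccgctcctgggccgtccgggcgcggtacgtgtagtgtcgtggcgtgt
Idi1: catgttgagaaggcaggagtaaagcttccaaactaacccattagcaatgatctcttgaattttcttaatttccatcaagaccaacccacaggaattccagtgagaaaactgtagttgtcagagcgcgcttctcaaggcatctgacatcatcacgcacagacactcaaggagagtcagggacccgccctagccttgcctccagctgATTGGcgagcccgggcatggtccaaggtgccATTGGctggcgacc
TCACNCCAC, searched on both strands, was found in 1 of the 24 windows, in Hmgcs1 as TCACCCCAC beginning 137 bases before the start, against 1.44% of 27025 genes with a window. CCAAT was found in 19 of 24 (79.2%), against 41.1% of those genes and 42.3% of the 17492 protein-coding ones. GGGCGG, the GC box, was found in 20 of 24 (83.3%), against 38.2% of all and 49.2% of the coding genes. Overlap between motifs was allowed. These are matches of letters in a short window and were not tested against binding data. Only the N of TCACNCCAC was free to vary, so elements spelled otherwise were not counted. A window without a match may still hold an element.

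The deposited FPKM values, which are read counts scaled to gene length and library total, put the genes over a wide range of levels. Scd2, the main stearoyl-CoA desaturase of brain, stood at the top with a mean of 249 FPKM over the 47 mice, ahead of Cyp46a1, the neuronal cholesterol 24-hydroxylase (95.0 FPKM), and Hmgcs1, the HMG-CoA synthase (86.5 FPKM). The polyunsaturated fatty acid desaturases Fads1 and Fads2 followed at 59.4 and 59.0 FPKM, and these neighbours in the order did not differ beyond the spread of the mice; nor did Fdft1, at 26.7 FPKM, and Insig1, next in the order. Srebf2 had 55.1 FPKM, against 8.03 FPKM for Srebf1. Of the sterol enzymes, Hmgcs1, Fdft1 (squalene synthase), Sc5d (a sterol desaturase, 24.1 FPKM) and Cyp51 (lanosterol demethylase, 15.8 FPKM) were the highest, and Fdps (farnesyl diphosphate synthase, 2.79 FPKM) and Idi1 (isopentenyl diphosphate isomerase, 2.58 FPKM) the lowest of all 31.
The genes varied little between mice. The highest mouse had 1.15 times the level of the lowest for Scap and 1.92 times for Insig1, the extremes of the 31.

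**Figure D1:**
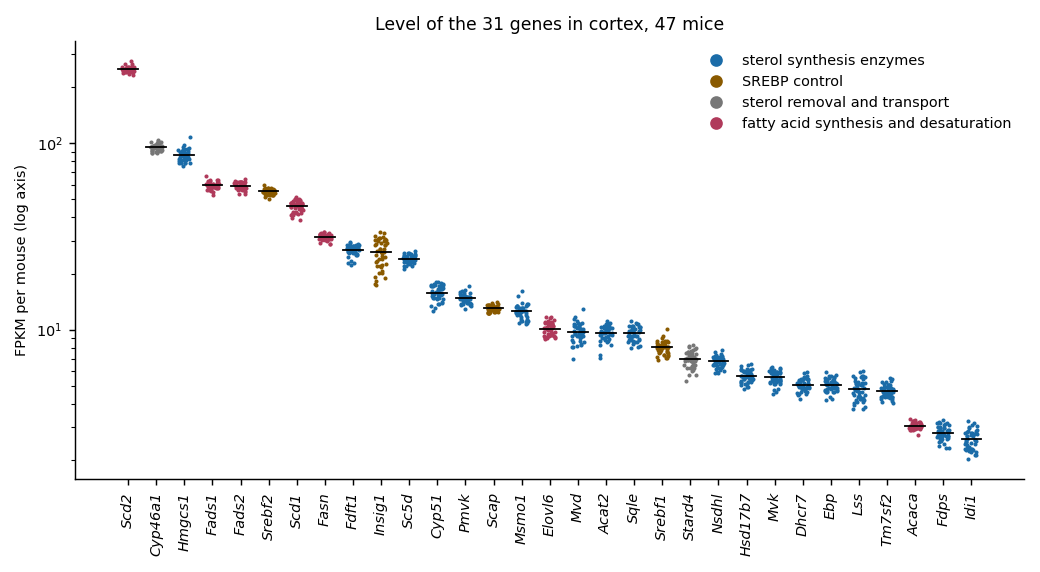
FPKM of each of the 31 genes in each of the 47 mice (points, log axis), ordered by the mean over all mice (black line) and coloured by role. Scd2 leads at 249 FPKM, Idi1 is last at 2.58 FPKM, and Insig1 has the widest spread.

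The libraries held 43554594 to 61370843 counts (median 50473683), and all 31 genes passed the filter on low counts, with at least 364 counts in every library. Ccdc82 checked the labels: it had 4.70 to 5.83 CPM (counts scaled to the library total) in Q140 X Ccdc82-/-, 4.64 to 6.30 in Ccdc82-/-, 10.5 to 13.2 in Q140 X Ccdc82+/-, 9.72 to 12.1 in Ccdc82+/-, 13.8 to 16.9 in Q140 and 14.3 to 19.1 in WT.

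The effect of the Q140 allele was tested as the average over the 3 Ccdc82 genotypes, in edgeR with Benjamini-Hochberg adjustment over all 19174 genes tested; an adjusted p under 0.05 was a call. Of the 31 genes 1 was called, Fads1, which was lower with Q140, against 0.876% of all genes called in either direction and 0.537% called lower. None of the 18 sterol enzymes was called, nor any of the 4 SREBP control genes, while at an unadjusted p under 0.05 there were 6 of the 31 genes, 4 of them among the 7 fatty acid genes, against 9.18% of all genes.

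Fads1 (ENSMUSG00000010663, chromosome 19, 10182888 to 10196877, plus strand, GRCm38) encodes the desaturase that makes arachidonic and eicosapentaenoic acid from their precursors. Its level had a lowest, median and highest value of 53.0, 58.0 and 60.5 FPKM in the 23 mice with Q140, against 58.3, 60.3 and 66.5 FPKM in the 24 mice without. The ranges overlapped, but the highest mouse with Q140 lay only just above the median of mice without it. The fitted difference was -0.08 on the log2 scale (SE 0.0141, adjusted p = 0.000457 in edgeR), which is -5.50%. Of the 23 mice with Q140, 22 lay below the mean of mice without it of the same Ccdc82 genotype and sex.

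The lower level was seen on each Ccdc82 background, though no single comparison reached a call. Fads1 had a lowest, median and highest value of 53.0, 58.2 and 60.5 FPKM in Q140 X Ccdc82-/-, against 58.3, 59.8 and 63.2 FPKM in Ccdc82-/-. In Q140 X Ccdc82+/- these were 55.8, 58.3 and 60.4 FPKM, against 58.5, 60.6 and 63.4 FPKM in Ccdc82+/-. In Q140 they were 55.1, 57.9 and 60.5 FPKM, against 59.0, 61.6 and 66.5 FPKM in WT. The medians with Q140 lay within a narrow band on the 3 backgrounds. The log2 differences were -0.08 (SE 0.0251, adjusted p = 0.839), -0.07 (SE 0.0242, adjusted p = 0.707) and -0.09 (SE 0.0242, adjusted p = 0.168) in that order, all in edgeR. The interaction with Ccdc82-/- was 0.02 (SE 0.0349) and that with Ccdc82+/- was 0.02 (SE 0.0342), and neither was called. In females alone the Q140 difference was -0.07 (SE 0.0225, adjusted p = 0.498) and in males alone -0.09 (SE 0.0186, adjusted p = 0.0309) (both fits were added once the pooled result was known); the difference between the sexes was 0.02 (SE 0.0287, adjusted p = 1).

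**Figure D2:**
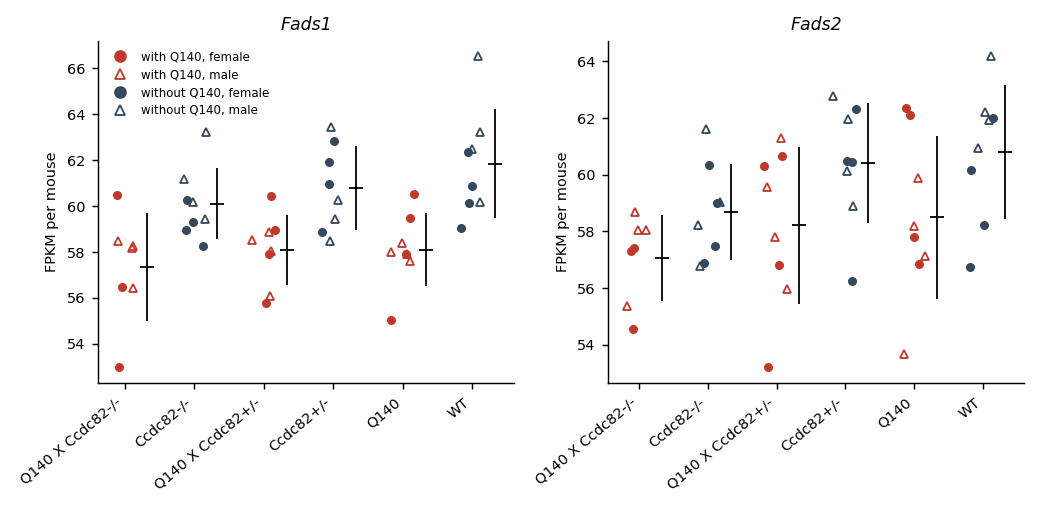
FPKM of Fads1 and Fads2 per mouse in the 6 genotypes, each Q140 genotype left of its control; red marks mice with Q140, filled circles females and open triangles males, and the bars are mean and SD (n = 8, or 7 in Q140 X Ccdc82-/-). On every background the mean of mice with Q140 lies below that of mice without it, with overlapping mice, and the axes do not start at 0.

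Fads2, the desaturase of the preceding step in the same pathway and the neighbour of Fads1 on chromosome 19 (10062765 to 10101746, minus strand), lay in the same direction without a call. It had a lowest, median and highest value of 53.2, 57.8 and 62.4 FPKM with Q140, against 56.2, 60.2 and 64.2 FPKM without. The log2 difference was -0.06 (SE 0.0166, adjusted p = 0.0979 in edgeR), and 19 of 23 mice with Q140 lay below their matched mean. With the plate column as a factor Fads2 was called (adjusted p = 0.0403).

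Of the other genes with the smallest p, Cyp46a1 had a lowest, median and highest value of 88.8, 93.5 and 98.6 FPKM with Q140, against 88.3, 96.7 and 104 FPKM without. Its log2 difference was -0.05 (SE 0.0152, adjusted p = 0.111), with 20 of 23 mice below their matched mean, and Q140 against WT alone gave -0.10 (SE 0.026, adjusted p = 0.233). The highest mouse of the Q140 group had 96.8 FPKM and the lowest of the WT group 96.2 FPKM, so that these groups barely overlapped. The difference was smaller on the other backgrounds. In mean log2 CPM it was -0.02 on Ccdc82-/- and -0.03 on Ccdc82+/-, with overlapping mice, against -0.10 for Q140 and WT. Scd2 had 233 to 265 FPKM with Q140 (median 246), against 242 to 277 FPKM without (median 251), a difference of -0.04 (SE 0.0123, adjusted p = 0.151).

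Insig1 had the largest difference of the 31 and the largest error. It had 17.5 to 31.5 FPKM with Q140 (median 24.9), against 19.1 to 33.4 FPKM without (median 27.8), and the log2 difference was -0.17 (SE 0.064, adjusted p = 0.327). Acaca, the acetyl-CoA carboxylase that starts fatty acid synthesis, had 2.92 to 3.30 FPKM with Q140 (median 3.08), against 2.71 to 3.22 FPKM without (median 3.01), and a difference of 0.04 (SE 0.0151, adjusted p = 0.337). These ranges overlapped. Dhcr7, a reductase of the last steps to cholesterol, had 4.25 to 5.89 FPKM with Q140 (median 4.99), against 4.46 to 5.90 FPKM without (median 5.27), and Nsdhl, a sterol dehydrogenase, 5.88 to 7.35 FPKM (median 6.69), against 5.83 to 7.79 FPKM (median 6.90); their adjusted p were 0.641 and 0.715 in edgeR.

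Averaged over both sexes, the sterol enzymes as a group stayed close to 0 under Q140. Their 18 log2 differences ran from -0.05 to 0.02 with a median of -0.01, 13 of them below 0, against a median of 0.00085 over all genes, whose median absolute difference was 0.027. The SE of single enzymes lay between 0.0194 (Sc5d) and 0.0447 (Mvd, mevalonate decarboxylase). Changes of a few percent could therefore be missed, and larger ones in the enzymes with the larger SE. Srebf2, Srebf1 and Scap had differences of -0.01, 0.03 and -0.0011 with SE of 0.0166, 0.0292 and 0.0148. In fits of females and of males alone, added later, several sterol enzymes lay below 0 in females and above 0 in males. Cyp51 had -0.09 in females and 0.05 in males, Sqle -0.08 and 0.04, Mvd -0.06 and 0.05 and Fdps -0.05 and 0.06. Tm7sf2 (0.03 and -0.07) and Ebp (0.03 and -0.02) went the other way. None of the 18 enzymes was called in either fit, nor for the difference of the Q140 effect between females and males. That difference was -0.14 (SE 0.072) for Cyp51, -0.13 (SE 0.0596) for Sqle, -0.12 (SE 0.0892) for Mvd and -0.10 (SE 0.0653) for Fdps. For Tm7sf2 it was 0.10 (SE 0.056) and for Ebp 0.05 (SE 0.0605).

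**Figure D3:**
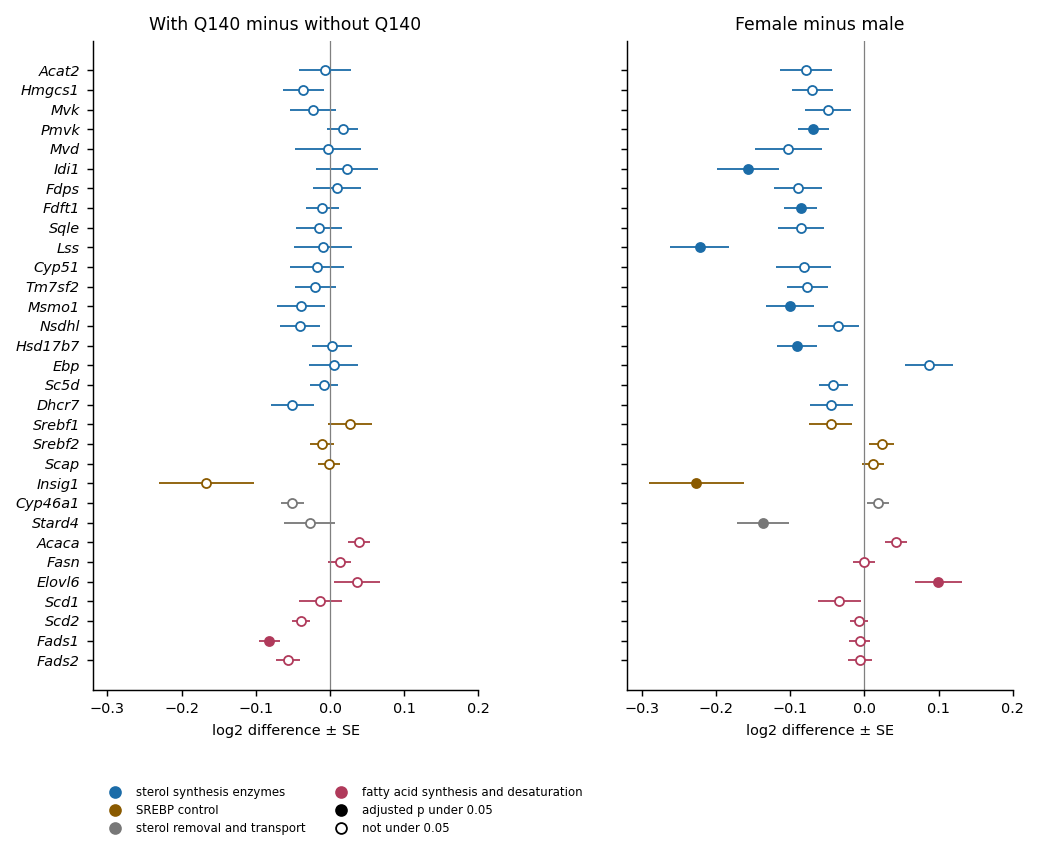
log2 differences with their SE from edgeR for the 31 genes, with Q140 minus without (left, 23 and 24 mice) and female minus male (right, 23 and 24 mice); filled circles have an adjusted p under 0.05 and colours give the role. Fads1 is the single filled point on the left, and 9 points are filled on the right.

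Of 40 further genes of the same pathways that are not among the 31, 1 was called under Q140, Acsl6, a long-chain acyl-CoA synthetase of brain that acts on polyunsaturated fatty acids, which fell by 0.05 (SE 0.0116, adjusted p = 0.026 in edgeR). Their median difference was -0.0064.

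Markers of other cell types moved with Q140 as well, a comparison in which 0.876% of all genes were called. Of 15 astrocyte markers 4 fell (Glul, Kcnj10, Aldoc and Slc1a2) and 0 rose, and their summed level was 8558 to 9988 CPM with Q140 (median 8933), against 8804 to 10463 CPM without (median 9490). Of 14 oligodendrocyte and myelin genes Enpp6 rose and Ugt8a fell, with sums of 2056 to 3237 CPM (median 2408), against 1864 to 3008 CPM (median 2535). Of 10 microglia markers Ctss rose, with sums of 359 to 419 CPM (median 381), against 341 to 408 CPM (median 375). None of the precursor, endothelial, excitatory or inhibitory neuron markers was called, and no marker was at 0 in all libraries. The part of these cells in the difference of Fads1 was not tested, and in bulk tissue fewer cells of a type and less RNA per cell cannot be told apart.

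Loss of Ccdc82 gave no call among the 31 genes, where the question was whether it alters expression with or without Q140. Averaged over mice with and without Q140, 0 of 31 were called in Ccdc82-/- in edgeR and 0 in DESeq2, against 0.00522% of all genes called, which is Ccdc82 itself, and 1 had an unadjusted p under 0.05 (Fads2, -0.04, SE 0.0205), against 4.65% of all genes. In Ccdc82+/- the counts were 0, 0 and 0 of 31, against the same 0.00522% called and 5.31% at the unadjusted p. The 18 sterol enzymes had a median log2 difference of -0.0095 in Ccdc82-/-, from -0.07 to 0.03, and of -0.0039 in Ccdc82+/-, from -0.06 to 0.05. Their median SE was 0.0384 and 0.0376, against a median SE of 0.0418 and 0.0411 over all genes.
In the 4 single comparisons, Q140 X Ccdc82-/- against Q140, Ccdc82-/- against WT, Q140 X Ccdc82+/- against Q140 and Ccdc82+/- against WT, edgeR and DESeq2 called 0 of 31, against 0.00522% of all genes in each. At an unadjusted p under 0.05 there were 0, 0, 0 and 1 of the 31, against 4.09%, 3.23%, 5.42% and 3.6% of all genes; the 1 was Cyp46a1 in Ccdc82+/- against WT (-0.05, SE 0.026, adjusted p = 0.993). These comparisons share their Q140 or WT mice.
The single Q140 comparisons likewise gave 0 calls of 31 in edgeR and in DESeq2. Over all genes edgeR called 0.0209% on Ccdc82-/- and 0.0313% on Ccdc82+/- and on wild-type Ccdc82. DESeq2 called 6, 9 and 24 of 19174 genes in that order. At an unadjusted p under 0.05 in edgeR there were 2, 4 and 3 of the 31, against 4.17%, 5.18% and 6.93% of all genes. For the interaction of Q140 with Ccdc82-/- and with Ccdc82+/- there were 0 calls in both tools, 0 at an unadjusted p under 0.05 (2.96% and 3.52% of all genes), and 0% of all genes called.

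Between females and males 9 of the 31 genes were called in edgeR, 8 of them lower and 1 higher in females, against 10.5% of all genes called, 5.26% lower and 5.27% higher. Of the 18 sterol enzymes 6 were lower in females: Lss, Idi1, Msmo1, Hsd17b7, Fdft1 and Pmvk. Insig1 and the sterol carrier Stard4 were lower too, and the fatty acid elongase Elovl6 was higher. The other 6 fatty acid genes were not called.

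Lss (ENSMUSG00000033105, chromosome 10, 76531588 to 76557138, plus strand), lanosterol synthase, closes squalene epoxide into the first sterol ring system. It had a lowest, median and highest value of 3.74, 4.44 and 5.08 FPKM in the 23 females, against 4.08, 5.20 and 6.01 FPKM in the 24 males. The median male lay above the highest female. The log2 difference was -0.22 (SE 0.0395, adjusted p = 0.000292), or -14.3%, and the female mean was the lower in 6 of 6 genotypes. The difference of the means in log2 CPM ran from -0.33 in Q140 X Ccdc82-/- to -0.10 in Q140. In Q140 X Ccdc82+/- no female reached a male (3.86 to 4.80 FPKM, against 5.17 to 5.64 FPKM). For Lss the other 5 genotypes overlapped. In Q140 X Ccdc82+/- the sexes did not overlap in Insig1, Stard4, Hsd17b7, Sc5d, Elovl6 and Ebp either, the last 2 higher in females. The share of all genes without overlap was not computed.

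Insig1 (chromosome 5, 28071363 to 28078662, plus strand) had 17.5, 24.1 and 30.3 FPKM in females as lowest, median and highest value, against 20.2, 29.1 and 33.4 FPKM in males. Over all genotypes together females and males overlapped widely. The log2 difference was -0.23 (SE 0.0641, adjusted p = 0.0191), and females were lower in 6 of 6 genotypes, most in Q140 X Ccdc82+/- (-0.50) and least in Q140 (-0.07).

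Idi1, which interconverts the isoprenoid building blocks, had 2.01, 2.41 and 2.86 FPKM in females, against 2.27, 2.76 and 3.25 FPKM in males, a log2 difference of -0.16 (SE 0.0417, adjusted p = 0.0112). Stard4, which moves cholesterol between membranes, had 5.28, 6.81 and 7.61 FPKM in females, against 5.74, 7.39 and 8.29 FPKM in males, a difference of -0.14 (SE 0.0344, adjusted p = 0.00824). In both the median male lay near the upper end of the females. Fdft1, the squalene synthase at the branch point to sterols, had 22.1, 26.2 and 28.1 FPKM in females, against 25.1, 27.7 and 29.7 FPKM in males, a difference of -0.09 (SE 0.0223, adjusted p = 0.00979).

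Msmo1, a methylsterol oxidase, had 10.7, 12.2 and 13.5 FPKM in females, against 11.2, 12.8 and 16.1 FPKM in males. Hsd17b7, the sterol ketone reductase, had 4.93, 5.39 and 6.39 FPKM in females, against 4.79, 5.91 and 6.55 FPKM in males. Pmvk, phosphomevalonate kinase, had 12.9, 14.3 and 16.4 FPKM in females, against 13.9, 15.1 and 17.1 FPKM in males. The ranges of females and males overlapped for these 3, and their log2 differences were -0.10, -0.09 and -0.07 (adjusted p = 0.0368, 0.0244 and 0.0295 in edgeR). Elovl6, which lengthens palmitate, went the other way with 9.16, 10.5 and 11.7 FPKM in females, against 8.95, 9.54 and 11.7 FPKM in males, a difference of 0.10 (SE 0.0315, adjusted p = 0.0348). It was higher in females in 5 of 6 genotypes, whereas the 8 lower genes were lower in 6 of 6. The same mice gave the calls, so these signs are no separate support. Fdps, Mvk, Nsdhl, Sqle and Tm7sf2, which were not called, were lower in 6 of 6 as well.

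**Figure D4:**
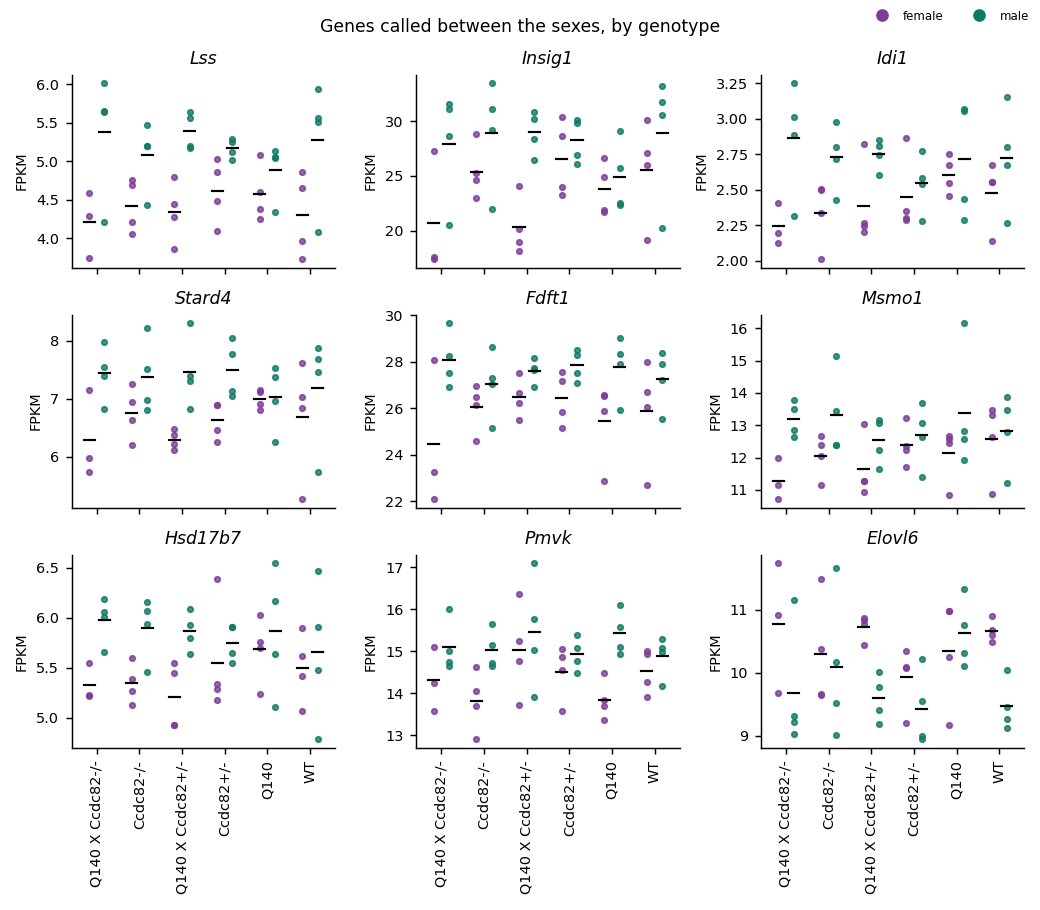
FPKM per mouse of the 9 genes called between the sexes, females (purple) left of males (green) in each genotype, with the mean as a black line; 4 mice a column, 3 for females of Q140 X Ccdc82-/-. For the 8 genes other than Elovl6 the female mean is below the male mean in all 6 genotypes, and the axes do not start at 0. The genes were called on these same mice.

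The enzymes that were not called mostly lay on the same side. Of the 18 sterol enzymes 17 had a value below 0 between females and males, against 49.3% of all genes. An unadjusted p under 0.05 in edgeR was reached by 15, among them Ebp, which was higher in females, against 26% of all genes. The median log2 difference of the 18 was -0.08, against 0.001 over all genes, whose median absolute difference was 0.0428. The enzymes varied together across mice, so these counts are not of separate results. Hmgcs1 had -0.07 (adjusted p = 0.0872 in edgeR), Sqle, squalene epoxidase, -0.09 (0.068), Fdps -0.09 (0.0607) and Tm7sf2, a sterol reductase, -0.08 (0.0622). Ebp, the sterol isomerase, which lies on the X chromosome, was the exception at 0.09 (SE 0.0325, adjusted p = 0.0727), and Nsdhl, also on X, had -0.04 (SE 0.0272, adjusted p = 0.433). In separate fits added after seeing the data, most of the enzymes differed more between the sexes in mice with Q140 than in mice without. Without and with Q140, Cyp51 had -0.01 and -0.16, Sqle -0.03 and -0.15, Fdps -0.04 and -0.14 and Hmgcs1 -0.03 and -0.11. Tm7sf2 went the other way, with -0.13 and -0.03. These values rearrange the difference of the Q140 effect between the sexes, which was not called for any enzyme, and are no second observation.
The 7 fatty acid genes had a median of -0.0061. Srebf2, Srebf1 and Scap, with 0.02, -0.05 and 0.01, were not called, and Cyp46a1 had 0.02 (SE 0.0152). Fads1, Fads2, Scd2 and Fasn, the fatty acid synthase, all lay within 0.01 of 0. For the difference of the Q140 effect between females and males 0 of 31 were called in edgeR and in DESeq2, and 0% of all genes; 3 had an unadjusted p under 0.05 (Acaca, Sqle and Sc5d), against 4.01% of all genes.

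Of the 40 further pathway genes 5 were called between the sexes, a share near the 10.5% of all genes. Stard3, an endosomal sterol transporter, rose by 0.07 in females, Lipa, the lysosomal lipase that frees cholesterol from its esters, by 0.10, Soat1, which esterifies cholesterol, by 0.06 and Hsd17b12, a reductase of fatty acid elongation, by 0.06. Mbtps1, the protease that activates SREBP, fell by 0.04. Their adjusted p in edgeR lay between 0.0189 and 0.0454, and the median of the 40 was -0.00052.

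Sex could not be fully told apart from the number carried in the library names. The 47 libraries carried 19 such numbers, 10 of them female and 9 male, and each held 1 sex; the labels do not say what the number stands for. Mice that shared a number resembled each other in Insig1 and Lss, with intraclass correlations of 0.625 and 0.559 within numbers, against 0.142 for Idi1 and -0.105 for Pmvk. With the number as a random effect, 4.44% of all genes were called, against 10.5% without it, and 4 of the 9 calls held (Lss, Fdft1, Stard4 and Idi1), and Insig1 (adjusted p = 0.0577), Pmvk (0.0773), Elovl6 (0.0772), Msmo1 (0.0924) and Hsd17b7 (0.105) lost theirs. An exact permutation of sex over the 19 numbers, added after this was seen, gave unadjusted p of 0.00313 for Pmvk, 0.00451 for Lss, 0.00607 for Fdft1, 0.023 for Idi1, 0.0244 for Elovl6, 0.0334 for Msmo1, 0.0389 for Stard4, 0.0522 for Insig1 and 0.0798 for Hsd17b7. The plate columns each held both sexes. In a fit of mice with Q140 alone 0 of the 31 were called, against 0.434% of all genes, and in mice without Q140 alone 1, Lss, against 2.74% of all genes. The log2 difference of Lss was -0.24 with Q140 (adjusted p = 0.0552) and -0.21 without (adjusted p = 0.0441).

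Markers of several cell types were called between the sexes as well, a comparison in which 10.5% of all genes were called. Among the astrocyte markers Kcnj10 and S100b were higher in females, and the list had sums of 8621 to 9988 CPM in females (median 9264), against 8558 to 10463 CPM in males (median 9032). Of 14 oligodendrocyte genes Ermn and Ugt8a were higher (sums of 2243 to 3237 CPM, against 1864 to 3008 CPM), of 6 precursor markers Gpr17 and Vcan (173 to 223 CPM, against 168 to 197 CPM) and of 10 endothelial and pericyte markers Cldn5, Kdr and Flt1 (277 to 319 CPM, against 271 to 319 CPM). Gad1 and Gad2 of 6 inhibitory neuron markers were lower (868 to 962 CPM, against 887 to 998 CPM). None of the microglia, excitatory neuron, meningeal, choroid plexus or red blood cell markers was called, and no marker was at 0 in all libraries. The median log2 difference of the 5 red blood cell genes was -0.64, each of them below 0, and their sums were 0.158 to 35.5 CPM in females, against 0.148 to 31.2 CPM in males. Their part in the differences of the sterol genes was not tested.

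Across mice, the sterol genes varied together. After removal of genotype and sex, the 153 pairs of the 18 sterol enzymes had a median Pearson r of 0.48 over the 47 mice, and 127 of the pairs were above 0, while the 21 pairs of fatty acid genes had a median of 0.259. The closest pairs were Hmgcs1 with Msmo1 (r = 0.866) and Mvd with Msmo1 (r = 0.859). All values of a mouse share 1 library, and mice that share a library-name number are not independent of each other. Correlations between genes drawn from all those tested were not computed. Whether such values are particular to the sterol enzymes was therefore not tested.
Of 8 pairs fixed for testing, 5 had an adjusted permutation p under 0.05 (100000 two-sided permutations, adjusted over the 8). The permutations moved all mice freely, without regard to the library-name number, so these p may be too small. Hmgcs1 and Sqle gave r = 0.724 (rho = 0.729, adjusted permutation p = 4e-05) and Hmgcs1 and Idi1 r = 0.598 (rho = 0.618, adjusted permutation p = 4e-05); the raw p of both, 1e-05, is the smallest these permutations can give. Hmgcs1 and Insig1 gave r = 0.503 (rho = 0.526), Fads1 and Fads2 r = 0.515 (rho = 0.557) and Scd1 and Scd2 r = 0.506 (rho = 0.558), with a raw permutation p of 0.0003, 0.00023 and 0.00026 and an adjusted p of 0.00048 for each. Without the 2 mice farthest from the median of the first gene the r of these 5 pairs was 0.684, 0.628, 0.532, 0.483 and 0.464 in that order. Within the 6 plate columns r was above 0 in 6 of 6 for these 3 pairs with Hmgcs1 (0.308 to 0.916) and for Fads1 and Fads2 (0.485 to 0.856), and in 5 of 6 for Scd1 and Scd2 (-0.337 to 0.902).

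The other 3 fixed pairs, of 2 targets with their transcription factor and of Hmgcs1 with Cyp46a1, did not reach the threshold. Hmgcs1 and Srebf2 gave r = 0.143 (rho = 0.0768, raw permutation p = 0.334, adjusted 0.446), Fasn and Srebf1 r = 0.00526 (rho = -0.00971, raw 0.971, adjusted 0.971), and Hmgcs1 and Cyp46a1 r = -0.0335 (rho = -0.072, raw 0.824, adjusted 0.942). Without the 2 farthest mice these were 0.147, -0.0456 and -0.0128. Insig1, by contrast, had a median r of 0.616 with the 18 sterol enzymes, Stard4 one of 0.544 and Fasn one of 0.55, against 0.0685 for Srebf2, 0.0219 for Srebf1 and -0.0374 for Cyp46a1.
Ebp, Pmvk and Tm7sf2 stood outside the block of enzymes. Ebp had a median r of -0.27 with the other 17 and its lowest value with Lss (r = -0.725), Pmvk had 0.105 and Tm7sf2 0.0493. Elovl6 also ran against Lss (r = -0.646). These are descriptions over all pairs, with no test.

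**Figure D5:**
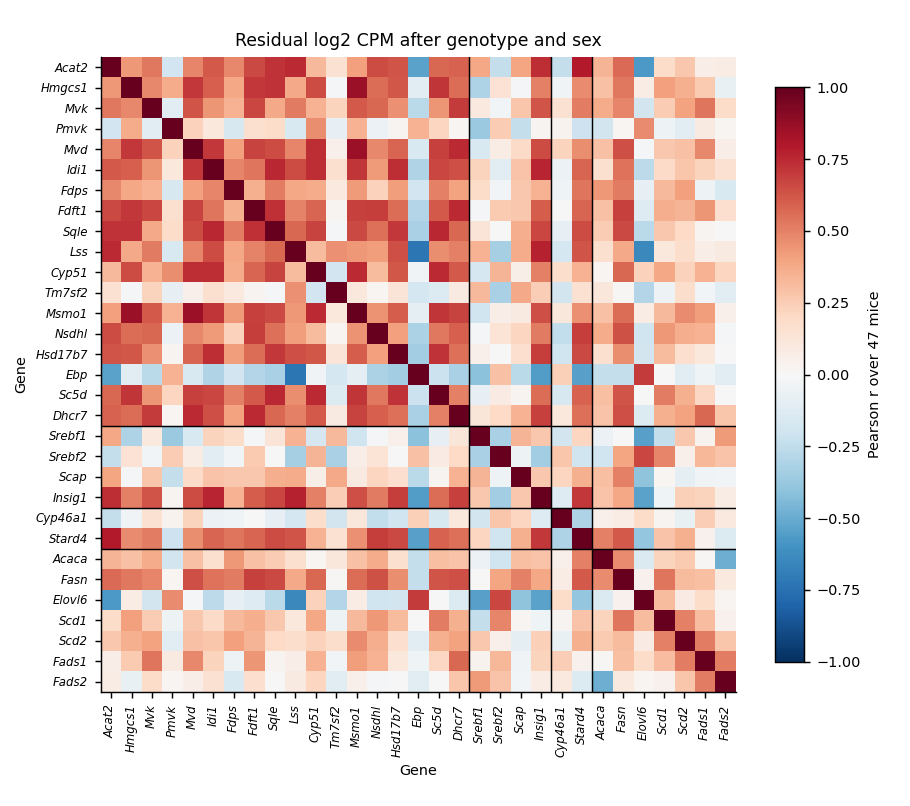
Pearson r over 47 mice between the 31 genes, from log2 CPM after removal of genotype and sex; lines separate the 18 sterol enzymes, the 4 SREBP control genes, the 2 genes of sterol removal and transport and the 7 fatty acid genes. The red block at the upper left holds most sterol enzymes, with a median r of 0.48, and Ebp is blue against it, down to -0.725 with Lss.

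Some of these counts may hold reads of other genes or lack reads of their own, since how reads in overlaps were assigned is not stated. The library kit keeps strand, but the labels give no strand setting for the counting. On the other strand, exons of Fdft1 overlap those of Ctsb, of Lss those of 4930483K19Rik and of Idi1 those of Gm48574. The same holds for Elovl6 with Gm35986, Hmgcs1 with Gm48342, Cyp51 with Akap9 and Scap with 5830462I19Rik. On the same strand, where a strand setting cannot separate reads, exons of Tm7sf2 overlap those of Vps51, of Fdps those of Gm43738 and of Scd2 those of Mir5114. Srebf1 overlaps Mir6922 and Rai1, 1 of them on each strand. Scd1 and Scd2 are close paralogs, and the labels do not state how shared reads were assigned.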

How the data were processed

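Stranded libraries (TruSeq) of cortex RNA were sequenced, per the labels' protocols. Of the 2 deposited tables, 1 gives unnormalized counts of reads for every gene and the other FPKM, which are those counts divided by a gene length and the total of the library; the length implied by the ratio was the same in every library for 19539 genes (largest relative SD 3.03e-15). Per the submitters' processing notes, HTSeq 0.12.3, STAR 2.7.5c and SAMtools 1.10 were used, with GRCm38 (mm10); no source used here names the annotation release.

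Of 48795 genes 19174 passed filterByExpr with a minimum count of 10 and a minimum total of 15. Counts were scaled by TMM and fitted in edgeR 4.0.16 (R 4.3.3, robust quasi-likelihood) with 6 genotype means and sex, all 47 libraries in 1 fit. The 14 contrasts were adjusted by the Benjamini-Hochberg method over all genes kept, and an adjusted p under 0.05 was called. The Q140 effect by sex used genotype-by-sex means. The fit was tested on simulated data with changes given to genes drawn from all those tested. It recovered 10 of 50 genes changed 1.06-fold, 26 of 50 changed 1.1-fold, 35 of 50 changed 1.2-fold and 48 of 50 changed 1.5-fold. Among the unchanged genes 9 were called. Most changes of the size seen in Fads1 would thus be missed. CPM values are counts scaled to the library total after TMM, and log2 CPM used a prior count of 2. Correlations used residuals after genotype and sex (SciPy 1.17.1). Alternatives were DESeq2 1.42.0, RLE size factors, no filter, no sex term, the plate column as a factor, a replicate block, the library-name number as a random effect (limma 3.58.1), limma-trend on log2(FPKM + 0.1) and the compared groups alone. Totals of 43554594 to 61370843 counts leave counting error small beside the differences between mice: between replicates of a group the chi-square per gene was 3.67 to 22.0, so no library was a copy of another of its group. The genes and lists were chosen with earlier results of these data known. Values per group are given for genes called in any contrast and for the 8 with the smallest p under Q140, and further pathway genes are named where called. Coordinates are GENCODE M21 (GRCm38). No protein sequence was used here.
Replicate numbers did not pair the mice: same-numbered mice had mean correlations of -0.0341 to -0.00318 per number. P-values measure the spread between these samples, since nothing beyond the numbering says that each is a separate animal. The result of 1 cell type marker between the sexes is not reported here.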

Additional observations from a re-analysis of the deposited data

Results flagged for a closer look

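In each genotype the highest and the lowest mouse of every gene were compared with the rest of their group by Dixon's criterion on FPKM, over 186 groups, and 5 values, from 4 mice, stood apart; chance flags about 1 in 20 groups. Hmgcs1 had 107.6 FPKM in Q140 male 4, with the next mouse at 89.65 FPKM, and the same mouse had 16.15 FPKM of Msmo1, with the next at 12.83 FPKM. Mvk had 6.214 FPKM in Ccdc82-/- male 3 (next 5.448 FPKM), and Fdps had 3.265 FPKM in Q140 X Ccdc82+/- male 1 (next 2.892 FPKM). Sqle had 8.594 FPKM in Ccdc82+/- female 4, the lowest of its group (next 9.549 FPKM).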

How the results depend on the processing

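Under Q140 the count of called genes among the 31 was 1, against 0.876% of all genes. It was 2 with the plate column as a factor (Fads1 and Fads2), against 155 of 19174 genes. In females only, where fewer mice were tested, it was 0, against 0.0984% of all genes. Fads1 was called in 8 of 8 other settings of all mice, with an adjusted p of 1.23e-05 to 0.00181. With the replicate block the count was 1, and 0 in each of the other 11 genotype contrasts, as without it. Female against male could not be fitted with the block, which is numbered within sex and takes up the sex term, and the difference of the Q140 effect between the sexes was not run with it. Between females and males 9 of the 31 were called (10.5% of all genes), against 13 in DESeq2 (12.7%) and 9 with RLE size factors (10.5%). There were 7 without the filter (4.32%), 12 with the plate column (14.4%) and 13 with limma-trend (11.6%). Once library-name numbers entered as a random effect there were 4 (4.44%). In mice with Q140 only there were 0 (0.434%), and in mice without Q140 only 1 (2.74%). Each percentage is the share of all genes called in that setting. The last 2 settings used fewer mice and, like the fits by sex, were chosen after seeing the data. Without the filter Msmo1 (adjusted p = 0.0737) and Elovl6 (0.0643) lost their calls. No result reversed its sign past the threshold. Of the results of single genes, 3676 kept their side under the alternatives, 17 gained and 27 lost a call. With 47 libraries the median SE of the 31 genes under Q140 was 0.0289 on the log2 scale, which bounds the differences that could be detected.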
